A study of Mus musculus with 20 samples.

Results

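The genes Sall4 and Sall1 were followed by ATAC-seq, which reads out accessible DNA through the cuts that Tn5 transposase makes in it, while mouse embryonic fibroblasts (MEFs) were reprogrammed to induced pluripotent stem cells. Members were all peaks of 20 libraries that lay within 20 kb of either gene. Overlapping peaks (1 bp or more) were joined, and 37 of the 335858 merged regions met this rule. There were 18 such elements at Sall4 and 19 at Sall1. The MEFs carried the Oct4-GFP (OG2) reporter allele and came from E13.5 embryos of OG2 males crossed to 129 females. They were infected with retroviruses that carried Oct4 together with Nanog, or Oct4 together with NanogN70. NanogN70, called NanogBiD in the study, joins to the N-terminus of NANOG the part of SS18 (a BAF remodeling complex subunit) that binds BRG1. Both factor pairs shared the reporter and the added Oct4, and day 0 was set after 2 rounds of infection, so no library of the time course is of uninfected cells. The cells were kept in iCD3 medium and moved to N2B27 with 2iL medium after day 7 or at a chosen time. Embryonic stem cells (ESCs) came from OG2 mice and were kept in N2B27 with 2iL. MEFs gave 1 library and ESCs gave 3. Each path gave 8, taken on days 0, 1, 3 and 5 and then on days 7, 8, 10 and 12, so no day has a replicate. Each library pools reprogramming cells with cells that do not reprogram. In such mixed samples, a lower signal from fewer open cells and a lower signal in every cell cannot be told apart.

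SALL proteins are zinc-finger transcription factors whose N-terminal motif binds the NuRD deacetylase and remodeling complex. Sall4 is part of the transcription factor network of ESCs and early embryos and is among the factors used to drive reprogramming. Sall1 is also expressed in ESCs and is best known for its role in kidney development.

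An element is named here by the distance from the main start site of the gene to its top-scoring summit in ESCs (in all libraries, where ESCs had none), with plus for downstream and minus for upstream. Both genes lie on the minus strand. Sall4 (ENSMUSG00000027547.17) spans chr2:168748332-168767943 on mm10, and its main coding start site is at 168767201. Sall1 (ENSMUSG00000031665.7) spans chr8:89027235-89044162 and starts at 89044162. The window at Sall4 also holds the 5′ part of Atp9a, a phospholipid flippase gene on the same strand, and Gm14261, a noncoding transcript on the plus strand that overlaps the Sall4 start. ATAC-seq carries no strand, so it cannot tell which gene the accessibility there belongs to. The window at Sall1 holds no other protein-coding gene. The sequences within 100 bp of the summit are shown for the element at the Sall1 start site and for the 3 distal elements that were open in ESCs and closed in MEFs with the highest ESC scores. They were read from the GRCm38.p6 genome of RefSeq, run 5′ to 3′ on the minus strand, and have in capitals the stretch that the top summits of the 3 ESC libraries span, taking for each library the summit of highest pileup in the element. The window of the Sall4 +1.7 kb element is not shown because most of it is leader of a RefSeq transcript, although GENCODE has an intron at the summit. The Sall1 +0.5 kb window, in the element at the start, is chr8:89043584-89043784. It lies downstream of the main start site and holds none of the 3 RefSeq start sites of the gene. The distal windows are chr8:89052976-89053176 (Sall1 -8.9 kb), chr2:168729817-168730017 (Sall4 +37.3 kb, in an Atp9a intron) and chr8:89063763-89063963 (Sall1 -19.7 kb).
Sall1 +0.5 kb: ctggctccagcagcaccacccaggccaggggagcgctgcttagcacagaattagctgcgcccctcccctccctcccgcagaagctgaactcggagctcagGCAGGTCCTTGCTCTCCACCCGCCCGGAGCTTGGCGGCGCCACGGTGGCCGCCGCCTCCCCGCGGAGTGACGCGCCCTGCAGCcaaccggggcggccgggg
Sall1 -8.9 kb: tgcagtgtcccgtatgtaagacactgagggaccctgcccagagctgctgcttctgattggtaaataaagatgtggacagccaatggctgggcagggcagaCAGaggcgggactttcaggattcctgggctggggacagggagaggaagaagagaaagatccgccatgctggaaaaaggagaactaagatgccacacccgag
Sall4 +37.3 kb: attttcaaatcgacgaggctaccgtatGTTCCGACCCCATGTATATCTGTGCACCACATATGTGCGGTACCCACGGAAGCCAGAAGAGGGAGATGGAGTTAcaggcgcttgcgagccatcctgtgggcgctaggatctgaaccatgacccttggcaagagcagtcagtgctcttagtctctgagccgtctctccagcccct
Sall1 -19.7 kb: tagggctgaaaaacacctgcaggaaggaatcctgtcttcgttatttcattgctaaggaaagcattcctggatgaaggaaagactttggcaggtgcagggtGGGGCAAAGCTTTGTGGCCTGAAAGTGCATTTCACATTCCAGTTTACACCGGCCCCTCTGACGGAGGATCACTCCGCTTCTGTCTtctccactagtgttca
At the Sall4 start the top summits of the 3 ESC libraries lay within 5 bp of one another, and at the Sall1 -8.9 kb element within 2 bp. They were 82 bp apart at Sall1 +0.5 kb, 73 bp at Sall4 +37.3 kb and 84 bp at Sall1 -19.7 kb. The Sall1 +0.5 kb window is the richest of these in G and C, with 73.1% and 18 CpG dinucleotides.

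Open means that the element had a peak in the library in question, and closed that it had none. The summit pileup is the number of tags stacked at the summit of a peak. To set libraries side by side it was divided by the median pileup of the same library at 14217 shared regions, where all 20 libraries had a peak, and this ratio is called the scaled pileup. These medians ran from 16 to 60. The highest was in the library labelled NanogN70 day 3, which stood apart. It had promoter peaks at 7 of 8 leukocyte marker genes (all but Cd79a), with a summed scaled pileup of 5.78, against 0 or 1 of 8 and at most 0.565 in each other time course library. Its part in the results was not tested, and counts over days that compare the paths are given below with and without day 3. The ESC libraries had promoter peaks at 7 or 8 of 8 ESC markers with summed scaled pileups of 7.31 to 8.05, compared with 3 of 8 and 0.692 in MEFs. All 8 fibroblast markers had a peak in MEFs and in each ESC library, but their summed scaled pileup was 7.67 in MEFs and 3.31 to 3.63 in ESCs. In the time course these markers also moved. The fibroblast sums on days 5, 7, 8, 10 and 12 were 4.14, 4.87, 4.59, 5.04 and 2.83 with Nanog and 3.96, 3.74, 2.88, 2.14 and 2.39 with NanogN70. The ESC sums on the same days were 0.857, 0.684, 0.719, 0.217 and 0.208 with Nanog and 1.65, 1.29, 1.00, 0.25 and 1.71 with NanogN70. On these days the fibroblast sum was higher with Nanog and the ESC sum higher with NanogN70, by little on day 5 for the first and on day 10 for the second. On days 0, 1 and 3 the ESC sums were 0.625, 0.312 and 0.783 with Nanog and 1.17, 1.00 and 1.85 with NanogN70, so this gap was there from day 0. The fibroblast sums on those days were 6.12, 5.94 and 4.35 with Nanog and 6.5, 4.75 and 2.4 with NanogN70. Most of the ESC gap was 1 gene, Tdgf1 (a Nodal coreceptor), at a mean of 0.183 with Nanog and 0.721 with NanogN70, while Utf1 and Fgf4 were slightly higher with Nanog and Dppa4 had no peak in either path. Their part in the differences between the paths given below was not tested.

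The start site of Sall4 was closed in MEFs and opened in both paths, at a higher level with NanogN70 on each of the 5 days from day 5 on. This element (chr2:168766288-168767451) covers the starts of 4 Sall4 transcripts. In the Nanog path there was no peak on days 0 and 3, and the summit pileups were 4 on day 1, 6 on day 5, 11 on day 7, 10 on day 8, 13 on day 10 and 21 on day 12. In the NanogN70 path there was no peak on days 0 and 1, and the pileups were 7, 16, 38, 23, 26 and 44 on days 3, 5, 7, 8, 10 and 12. The ESC libraries had 40, 45 and 26. Late NanogN70 libraries thus had pileups within the ESC range or close to it, while all Nanog libraries were under it.

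On the scaled pileup, which takes out the difference in library medians, NanogN70 reached 0.696 on day 5 and 1.00 on day 7, and was 0.885, 0.929 and 1.07 on days 8, 10 and 12. The ESC libraries were at 1.25, 1.18 and 0.897 (1.11 ± 0.188, SD, n = 3). Nanog was at 0.214, 0.289 and 0.312 on days 5, 7 and 8, then at 0.565 on day 10 and 0.875 on day 12. The NanogN70 path was at the level of the lowest ESC library by day 7, and the Nanog path was just under it on day 12. On day 12 the scaled pileup was 96.7% of the ESC mean with NanogN70 and 78.8% with Nanog.

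Averaged over the 8 days, the scaled pileup at the Sall4 start was 0.587 with NanogN70 and 0.313 with Nanog. This difference of 0.274 had NanogN70 higher on 6 days, Nanog higher on day 1 and no peak in either on day 0. One of the 6 is day 3, where NanogN70 was at 0.117 and Nanog had no peak, but the lowest scaled pileup that a peak of that Nanog library can have is 0.174, so the direction on that day is not established. The two-sided exact sign-flip permutation test over days gave p = 0.0625 and an adjusted p = 0.900 over all regions tested, so the difference did not pass. The test cannot give a p under 0.0078125 with 8 days, or under 0.015625 at this element, where 1 day has no difference. Even at 0.015625 the adjusted p could not have passed, since only 41974 of 233354 regions had the days that a p under 0.05 needs. Without day 3 the difference was 0.297. A peak was found on 6 days in each path, and without day 3 on 6 with Nanog and 5 with NanogN70.

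**Figure D1:**
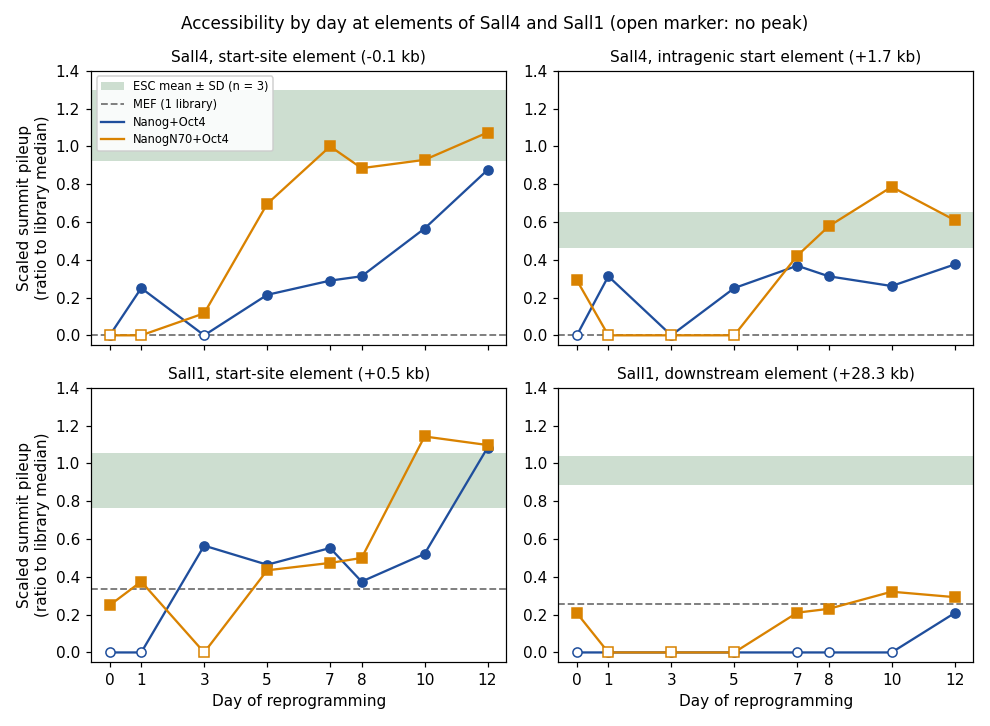
Scaled summit pileup (y axis, ratio to the library's median at shared regions) by day (x axis) at 4 elements, for Nanog+Oct4 (blue circles) and NanogN70+Oct4 (orange squares), 1 library a point. Open markers are libraries with no peak, the band is the ESC mean ± SD (n = 3) and the dashed line is the MEF library. At the Sall4 start the orange line is in or near the ESC band from day 7 and the blue line is 0.875 on day 12.

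The peaks at the Sall4 start were also of unlike length and number in the 2 sets of libraries. In each of the 6 NanogN70 libraries with a peak there was 1 peak, with its summit between -66 and -109 bp of the start, and its length was 163 bp on day 3, 579 bp on day 5 and 1140 bp on day 12. In the Nanog path 4 of 6 libraries had 2 peaks, and no peak was longer than 453 bp. On day 7 the median pileup at shared regions was 38 in both libraries, and the single NanogN70 peak was 912 bp long, while the 2 Nanog peaks covered 661 bp together. The ESC libraries covered 679 to 708 bp, with a longest peak of 418 bp in one of them, and Nanog on day 12 was within that range at 698 bp. On day 12 the 2 Nanog peaks had summits at -87 and +208 bp with pileups of 21 and 19. Of the ESC libraries, 2 had a single peak with the summit at -79 or -80 bp, and the other had a pair at -84 and +211 bp with pileups of 45 and 26. MACS gives 1 summit a peak, so a long peak does not report a lower second maximum. These positions and lengths were looked at after the values were seen and have no test. The MACS score, a log-scaled p-value of the peak, was 75.15 with Nanog and 467.85 with NanogN70 on day 5, and 224.65 and 652.17 on day 12, with 440.25, 528.35 and 372.66 in ESCs.

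**Figure D2:**
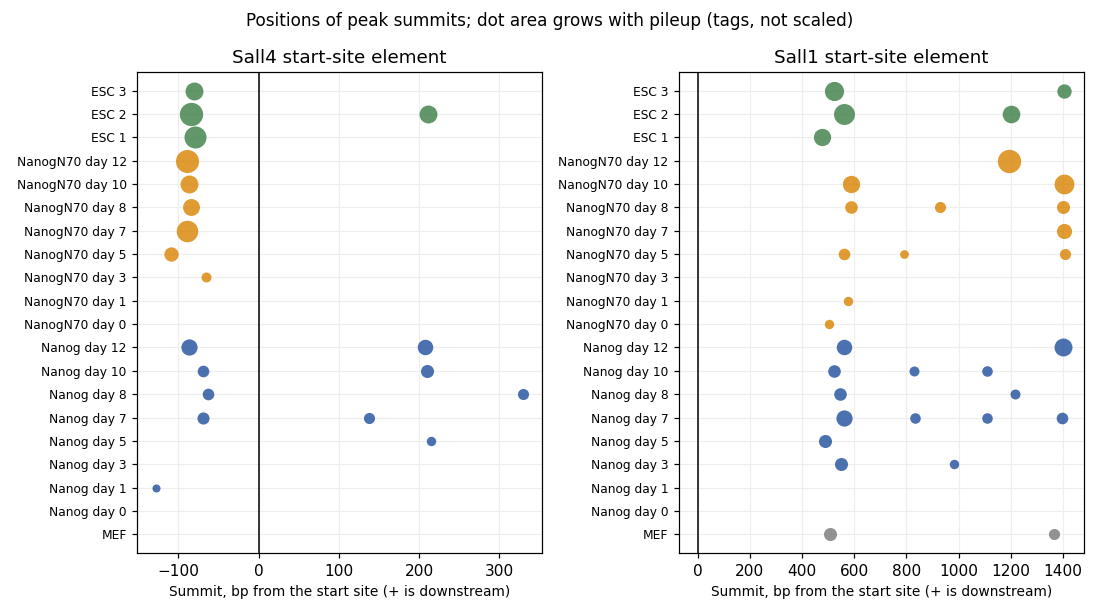
Positions of peak summits in bp from the main start site (x axis, plus is downstream) in each library (y axis) within the start-site elements of Sall4 and Sall1. The area of a dot grows with the unscaled pileup. At Sall4, NanogN70 summits form 1 column between -66 and -109 bp, and Nanog libraries have dots on both sides of the start.

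The Sall4 +1.7 kb element (chr2:168764966-168765709) covers the start of a shorter Sall4 transcript inside the gene. It was closed in MEFs and had pileups of 19, 24 and 13 in ESCs. In the Nanog path it was open on day 1 with a pileup of 5 and on days 5, 7, 8, 10 and 12 with 7, 14, 10, 6 and 9. In the NanogN70 path it had a pileup of 7 on day 0, no peak on days 1, 3 and 5, and pileups of 16, 15, 22 and 25 on days 7, 8, 10 and 12. Nanog thus had a peak here on 6 days and NanogN70 on 5, but from day 7 on the pileup was higher with NanogN70. The scaled pileup on day 12 was 0.610 with NanogN70 and 0.375 with Nanog, against 0.558 ± 0.0968 (SD, n = 3) in ESCs. Over all days the difference was 0.101 (0.336 against 0.235), which did not pass the exact sign-flip test (p = 0.359, adjusted p = 1). It was 0.0401 without day 10 and 0.160 without day 1. With presence of a peak in place of the pileup the direction turned, to -0.125.

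The other elements of the Sall4 window open in at least 2 ESC libraries and closed in MEFs opened briefly or not at all. The +32.9 kb element (chr2:168734004-168734484), at the start of a short Atp9a transcript, had pileups of 10 and 8 with NanogN70 on days 7 and 8 and of 11, 11 and 8 in ESCs, and no peak on any Nanog day. The element at +16.9 kb (chr2:168750227-168750444), in coding sequence of Sall4, had a pileup of 6 with NanogN70 on day 7 and of 8 in 2 ESC libraries. Neither had a peak with NanogN70 on day 10 or 12. The +37.3 kb element (chr2:168729819-168730041) had pileups of 17, 21 and 17 in ESCs (scaled 0.557 ± 0.0277, SD, n = 3). It had no peak in MEFs or on any day of either path. The +5.9 kb element (chr2:168761093-168761429), in a Sall4 intron, had pileups of 14 and 9 in 2 ESC libraries and no peak elsewhere. A scaled pileup between 0.0667 and 0.25, depending on the library, is the lowest that a peak can have, so a signal under that was not detectable.

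A few elements of the Sall4 window were open in reprogramming and in neither MEFs nor ESCs. At +35.8 kb (in an Atp9a intron) NanogN70 had pileups of 15 and 9 on days 7 and 8. The +2.3 kb element had a pileup of 11 with NanogN70 on day 8. Nanog had pileups of 6 and 7 on days 1 and 7 at +5.0 kb, the 1 element of the window open with Nanog and on no day with NanogN70. Within the time course, days 7 and 8 with NanogN70 had the most open elements, 9 and 8 of 18, against 5 and 4 with Nanog and 6 to 10 in ESC libraries. Of all regions, 20.9% and 14.2% were open in these NanogN70 libraries, 21.3% and 19.5% in the Nanog ones, and 25.8% to 31.6% in ESC libraries. Upstream of the gene the 4 elements from -9.9 to -15.9 kb had pileups of at most 7, with no peak on any Nanog day. The +38.8 kb element was the 1 element of the window that MEFs had and ESCs lacked, with a pileup of 5.

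The promoter of the neighbouring Atp9a gave a second scale within the same window, though not a constant one. Its element at +25.7 kb had a peak in MEFs, on 7 Nanog days (all but day 0), on all 8 NanogN70 days and in the 3 ESC libraries. The one at +25.1 kb was open in MEFs and in all 16 time course libraries, but in 1 ESC library only. The higher of the pair had a scaled pileup of 0.308 in MEFs, between 0.375 and 0.75 in the time course and between 0.690 and 1.06 in ESCs. The mean scaled pileup at +25.7 kb was 0.388 with Nanog and 0.520 with NanogN70 (exact sign-flip p = 0.0938, adjusted p = 1). At +25.1 kb it was 0.523 and 0.460 (exact p = 0.383, adjusted p = 1), so one element was higher with each path and neither difference passed the test. Divided by the higher of the pair in place of the shared regions, the difference at the Sall4 start kept its direction (0.459 over 8 days, exact p = 0.141, adjusted p = 1). This scaling was added after the values were seen.

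The start of Sall1 was open in MEFs already, which sets it apart from that of Sall4. This element (chr8:89042532-89044165) had a pileup of 13 in MEFs and of 24, 36 and 30 in ESCs. In the Nanog path there was no peak on days 0 and 1, and the pileups from day 3 to day 12 were 13, 13, 21, 12, 12 and 26. In the NanogN70 path they were 6 and 6 on days 0 and 1, with no peak on day 3, and 10, 18, 13, 32 and 45 from day 5 to day 12. Apart from NanogN70 day 3, the signal was lowest in the first days, and it was highest on days 10 and 12 with NanogN70 and on day 12 with Nanog.

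Scaled to the library medians, the Sall1 start was at 0.333 in MEFs and at 0.911 ± 0.146 (SD, n = 3) in ESCs. On day 10 it was at 1.14 with NanogN70 and 0.522 with Nanog, and on day 12 at 1.10 and 1.08, so the highest pileup in the element ended above the ESC mean in both paths. Those day 12 values came from summits 1192 bp (NanogN70) and 1399 bp (Nanog) downstream of the start. The ESC values came from summits at 478 to 560 bp, so unlike sites are compared. On day 12 the Nanog peak nearest the ESC summits had a pileup of 19, not 26. Over 8 days NanogN70 averaged 0.534 and Nanog 0.445, a difference of 0.0890 that did not pass the exact sign-flip test (p = 0.492, adjusted p = 1). Without day 3, when NanogN70 alone had no peak, the difference was 0.182 (exact p = 0.109, adjusted p = 1), and without day 10 it was 0.0129 (exact p = 0.922, adjusted p = 1). The direction turned under 3 other settings, at -0.0452 with a minimum score of 100.

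The Sall1 element holds the 3 start sites that RefSeq gives for the gene, at 0, 650 and 1300 bp downstream of the main one. The ESC libraries had their top summit 478 to 560 bp downstream, upstream of the second start site. The Nanog libraries had theirs 487 to 560 bp downstream from day 3 to day 10 and 1399 bp downstream on day 12, where the pileups of the 2 peaks were 26 at the far summit and 19 at the near one. With NanogN70 the top summit was at 502 to 578 bp up to day 5 and at 1192 to 1404 bp from day 7 on. On day 12 the whole 1634 bp of the element was 1 peak with NanogN70, with a score of 1196.69, the highest of any library there. These positions were looked at after the values were seen and have no test.

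The +28.3 kb element of Sall1 (chr8:89015433-89015956) lies in intergenic sequence past the end of the gene. It had a pileup of 10 in MEFs and of 29, 40 and 27 in ESCs. NanogN70 had pileups of 5 on day 0 and of 8, 6, 9 and 12 on days 7, 8, 10 and 12, and Nanog had 5 on day 12 only. The NanogN70 peaks on days 7 and 12 scored 105.02 and 144.33. Its others scored 54.41 to 87.62 and the Nanog peak 55.57, so these are gone at a minimum score of 100. With 5 days against 1 the +28.3 kb element was the 1 element of the 22 with a time course peak whose number of open days differed by 3 or more, against 6.39% of all such regions in that direction (1 of 22 against 5.44% without day 3). None differed so in favour of Nanog, against 5.45% (4.9% without day 3). The scaled pileup on day 12 was 0.293 with NanogN70 and 0.208 with Nanog, close to the 0.256 of MEFs and under the ESC level of 0.963 ± 0.0783 (SD, n = 3). The difference over days was 0.132, with NanogN70 higher on all 5 days that had a peak in either path. On day 0 NanogN70 was at 0.208, under the 0.25 that a peak of that Nanog library needs, so that direction is not established. With missing peaks set at the lowest pileup of the library the difference was 0.0352. It was 0.0485 at a minimum score of 100 and 0.0604 with the same number of top-scoring peaks from each library. Over 5 days the exact sign-flip test cannot give a p under 0.0625, which is the value it gave (adjusted p = 0.900), so it could not have passed.

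The strongest ESC element of both loci by score was the -8.9 kb element of Sall1 (chr8:89052764-89053453), with a mean ESC score of 884. Its pileups were 39, 55 and 38 in ESCs. It had no peak in MEFs, no peak on any Nanog day, and with NanogN70 a peak on day 12 only, with a pileup of 7. Its scaled pileup was 1.33 ± 0.115 (SD, n = 3) in ESCs and 0.171 with NanogN70 on day 12, which is 12.9% of the ESC mean. The highest pileup in the Sall1 start element, at another site than in ESCs, reached the ESC level on day 12 in both paths. The -8.9 kb element did not.

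The -2.8 kb element of Sall1 (chr8:89046216-89047134) had pileups of 20, 23 and 14 in ESCs and of 30 with NanogN70 on day 12, and no peak in any other library. Its scaled pileup on that day was 0.732, against 0.571 ± 0.0771 (SD, n = 3) in ESCs, but the score of the NanogN70 peak was 50.41, close to the minimum of 50, and that peak is gone at a minimum score of 100. The sites also differ in part. The NanogN70 summit lay at -2351 bp, and those of ESC 1 and ESC 3 at -2794 and -2790 bp. ESC 2 had summits at -2374 and -2791 bp. Nearer to the gene, the -1.3 kb element was open on day 12 alone, with pileups of 14 with Nanog and 17 with NanogN70, and in neither MEFs nor ESCs. Of the 7 elements upstream of the Sall1 start, 4 had a peak in the time course, each on day 12 alone. These are the 4 such elements among the 22 of both loci with a time course peak, against 3.34% of all regions with one, and the grouping by side of the start was made after the values were seen. The other 4 ESC-only elements of Sall1 had no peak in the time course. Their ESC pileups were 18, 16 and 14 at +31.7 kb (chr8:89011971-89012659), and 12 and 14 in 2 libraries at +36.8 kb (chr8:89007240-89007453). The pair of upstream elements had 9, 13 and 12 at -19.4 kb (chr8:89063332-89063729) and 11, 20 and 13 at -19.7 kb (chr8:89063737-89064067).

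MEFs had a peak at 6 of the 19 Sall1 elements, and at 34% of all regions. ESCs lacked 2 of these, at +2.0 kb in an intron (chr8:89042039-89042291, pileup 9) and at -11.5 kb (chr8:89055594-89055764, pileup 7). Neither had a peak on any day of either path, day 0 included. Their scaled pileups in MEFs were 0.231 and 0.179. The lowest that a peak can have was 0.25 in the Nanog day 0 library and 0.1875 in both day 1 libraries. Loss of the MEF signal is thus not established on Nanog day 0, nor at -11.5 kb on day 1. The MEF element at +22.8 kb had a pileup of 15 in MEFs, 5 with NanogN70 on day 0 and 6 and 9 in 2 ESC libraries. At +18.3 kb the pileup was 7 in MEFs, 6 with Nanog on day 7 and 8 and 9 with NanogN70 on days 10 and 12, and 7 in 1 ESC library.

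**Figure D3:**
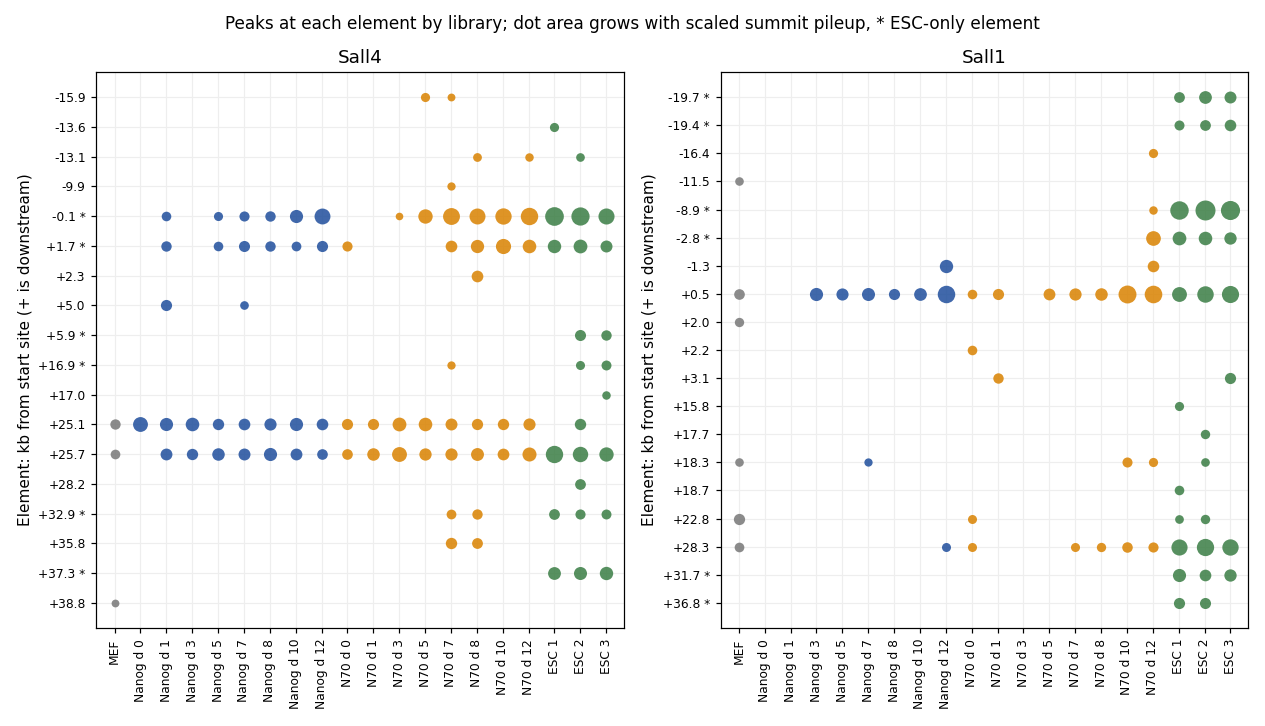
Peaks at the 18 elements of Sall4 and the 19 of Sall1 (y axis, kb from the start site) in each of the 20 libraries (x axis). A dot is a peak and its area grows with the scaled summit pileup, and a star marks an ESC-only element. At Sall1, dots upstream of the start appear in the time course on day 12 alone, at 4 elements, against 3.34% of all regions with a time course peak.

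Counted over both loci, 12 of the 37 elements were ESC-only, meaning open in at least 2 of 3 ESC libraries and closed in MEFs, with 6 at each gene, against 16.5% of all 335858 regions. NanogN70 opened 6 of these 12 on at least 1 day, against 30.8% of all ESC-only regions, and Nanog opened 2, against 17.3%. Without day 3 these were also 6 and 2, against 26.9% and 17.1%. On day 12 there were 4 open with NanogN70 and 2 with Nanog, against 14.2% and 5.87% of all ESC-only regions. With each factor 2 of the 12 were open on 5 or more days, against 4.75% of all ESC-only regions with NanogN70 and 2.3% with Nanog. Without day 3 there were also 2 with each, against 3.7% and 1.7%. The 2 opened by Nanog were the Sall4 elements at -0.1 and +1.7 kb. At Sall1, NanogN70 opened the -2.8 and -8.9 kb elements and Nanog opened none.

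Of 144 pairs of element and day at Sall4, 29 had a peak with Nanog and 38 with NanogN70, and of 152 at Sall1, 9 and 21. Over both loci this is 12.8% of pairs with Nanog and 19.9% with NanogN70. Over all regions the shares were 17% with Nanog and 19.1% with NanogN70 (17.3% and 18.6% without day 3). Without day 3 the pairs with a peak were 27 and 35 at Sall4 and 8 and 21 at Sall1. Over both loci 17 elements were open on more days with NanogN70 and 2 on more days with Nanog. Since 15 elements had no peak in the time course (against 30.5% of all regions), this is 17 of 22, against 51% of all regions with a time course peak, and 2 of 22 against 31.3%. Without day 3 the counts were 17 and 3 of 22, against 45.2% and 34.6%. There were 13 elements open with NanogN70 and on no Nanog day, against 37.8% of all such regions, and 1 with the reverse, against 18.3%. Without day 3 there were also 13 and 1, against 31.9% and 20.9%. Of these 13, 9 were open on a single day. At a minimum score of 100 the pairs with a peak were 19 with Nanog and 25 with NanogN70 at Sall4, and 6 and 8 at Sall1. With the same number of top-scoring peaks taken from each library they were 24 and 26 at Sall4, and 7 and 9 at Sall1.

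**Figure D4:**
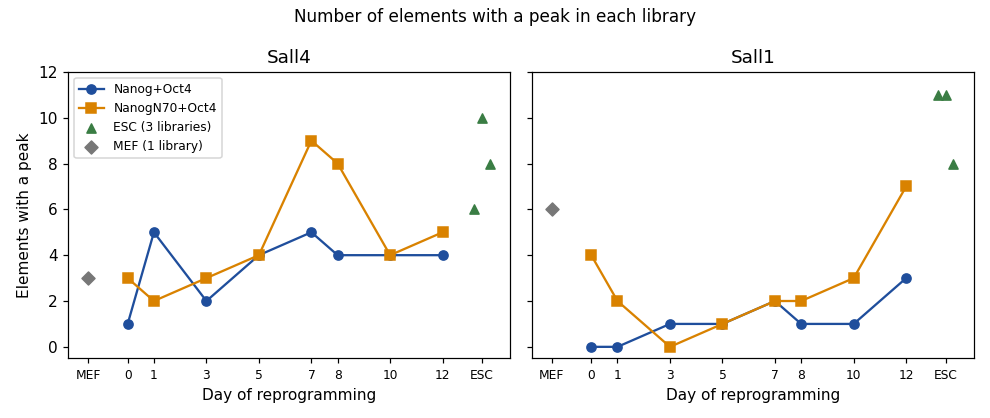
Number of elements with a peak (y axis) in each library by day (x axis) at Sall4 and Sall1, for Nanog+Oct4 (blue), NanogN70+Oct4 (orange), MEFs (grey) and the 3 ESC libraries (green). At Sall4 NanogN70 is highest on days 7 and 8, with 9 and 8 elements, and at Sall1 on day 12, with 7 (against 14.4% of all regions in that library), in each case among the time course libraries.

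No element passed the test between paths, but for most this was set by the number of days with a peak. Before adjustment, a p under 0.05 needs at least 6 days with a difference, which 5 of the 22 elements tested had (18% of all regions tested). The other 17 could not have passed, and 10 of them had a difference on 1 day, where p is always 1. Among the 5, the Sall4 start and Sall4 +1.7 kb elements could not have passed after adjustment either, since their lowest possible p was 0.015625. The scaled pileup was higher on average with NanogN70 at 19 of the 22 elements tested and with Nanog at 3, against 59% of all tested regions in the first direction. Without day 3 the counts were also 19 and 3, against 55.4%. These counts and shares take a missing peak as 0. With missing peaks set at the lowest pileup of the library, Sall4 +16.9 kb and Sall1 -8.9 kb turned, to -0.0247 and -0.0251. At Sall1 +22.8 kb the direction rests on a NanogN70 day 0 value of 0.208, under the 0.25 that a peak of the Nanog library needs. The median difference over the 22 was 0.0435, and over all 233354 regions tested it was 0.0187. None of the 5 had an exact sign-flip p under 0.05 before adjustment. Over all regions, 1.66% had one in favour of NanogN70 and 2.64% in favour of Nanog (3879 and 6169), a balance that turned on unscaled pileups (5815 and 3101). After adjustment 0 regions passed (0%), with a lowest adjusted p of 0.830.

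Exact letters of 8 transcription factor motifs were searched on both strands within 100 bp of each summit, and shares are given over 335775 regions of all libraries. Among the 37 elements, the octamer ATGCAAAT was in 0, against 2.65% of all regions, and the ESRRB motif TCAAGGTCA in 0, against 0.479%. The NANOG core TAATGG was in 1 (8.52%) and the SOX core CATTGT in 6 (12%). The KLF motif GGGTGTGG was in 3 (2.81%), the AP-1 motif TGANTCA in 2 (17.3%), the TEAD motif GGAATG in 5 (15.4%) and the SALL4 motif AATATT in 1 (6.29%). In the sequences shown above, the Sall1 -8.9 kb window holds the KLF letters and the -19.7 kb window the TEAD letters, both on the strand opposite to the one printed. The windows at Sall1 +0.5 kb and at Sall4 +37.3 kb hold none of the 8. The median GC content of the members was 54.2%, against 47.8% of all regions.

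The other SALL genes were taken with Sall4 and Sall1 as a family, and no promoter region among them or among NuRD genes passed the adjusted sign-flip test. Taking the promoter as 2 kb on each side of a start site, Sall3 had a promoter peak in MEFs, on 4 Nanog days and on all 8 NanogN70 days, and its mean scaled pileup was 0.221 with Nanog and 0.609 with NanogN70, with NanogN70 higher on 8 of 8 days and ESCs at 0.589 ± 0.0867 (SD, n = 3). Sall2 had a peak on 1 Nanog day and 4 NanogN70 days, at 0.0132 and 0.103, and none in MEFs or ESCs. Of 12 genes of the NuRD complex, 10 had a promoter peak in all 16 time course libraries, against 50.3% of 21911 protein-coding genes. The exceptions were Mta1, with 5 Nanog and 4 NanogN70 days, and Mta3, with 7 and 8. Hdac1, a deacetylase of the complex, was at 2.42 with Nanog and 2.93 with NanogN70, and Hdac2 at 2.83 and 2.55.

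Among 15100 other genes with a promoter peak in at least 4 of the 20 libraries, the promoters whose scaled pileup followed Sall4 most closely were those of Mdk (a heparin-binding growth factor, Pearson r = 0.919), Ptpro (a receptor tyrosine phosphatase, 0.916), Map7d2 (0.911), Tcte1 (0.909) and Meioc (a meiosis factor, 0.902). For Sall1 they were Tcf15 (a bHLH transcription factor, 0.921), Scg3 (a secretogranin, 0.916), Shisa6 (0.911), Fez1 (0.907) and Epb41l4a (0.893). Each r is over 20 libraries on the log2(scaled pileup + 0.1) scale, and the libraries share depth and cell state. All 10 were open in the 3 ESC libraries. Sall4 and Sall1 followed each other less closely, with r = 0.595. The list depends on the scale, since with a pseudocount of 1 there were 3 of the 5 shared for Sall4 and 1 of 5 for Sall1.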

How the data were processed

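ATAC-seq had been run on 20 samples, grouped here by title. For the 3 ESC samples the source field says MEF, against the title. The authors trimmed reads with Trim Galore 0.6.4, aligned them to mm10 with Bowtie2 2.4.5, filtered them with SAMtools 1.16.1 and called peaks with MACS 1.4.2 in each library, keeping duplicates, with no control named. Each deposited peak has a MACS score (the p-value as a log10, times -10), and no score is under 50. The deposited signal of a summit is the unscaled coverage there, in tags (pileup). The sources used here give no read numbers, so depth is unknown. Peaks numbered 48843 to 91745 in the Nanog libraries, 44126 to 107038 in the NanogN70 libraries and 97450 to 116006 in ESCs. The MEF library had the most, 125467. Deeper libraries pass the peak threshold at more sites.

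Peaks were merged when they overlapped by 1 bp, and the highest pileup per region and library was kept, with 0 for no peak. The paths were compared by a two-sided exact sign-flip permutation test over the 8 days (256 flips) on each of 233354 regions with a time course peak, adjusted by the Benjamini-Hochberg method over all of them. Days of a path come from a single time course and are no biological replicates, and p-values do not speak to another transduction. The test was tested on simulated data. Elements given library by library were those over start sites, the ESC-only ones, those differing by at least 3 open days, and at each gene up to 2 that MEFs had and ESCs lacked, and some others are described by range or were chosen after their values were seen. The sequence at the Sall4 start is not reported here. The members and lists were chosen with earlier results of these data known. Gene models were GENCODE M21 on mm10, and all 21 chromosomes compared fell inside the reference lengths. Python 3.11.15, NumPy 2.4.6, pandas 2.3.3, SciPy 1.17.1 and matplotlib 3.10.9 were used. Alternatives were another minimum score, equal peak numbers, regions from summits, narrower windows, other scalings and leaving out days or ESC libraries.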

Additional observations from a re-analysis of the deposited data

How the results depend on the processing

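No region, those of both loci included, passed the adjusted threshold under any alternative tested over all regions, nor did the 4 Sall4 elements scaled by the Atp9a promoter (the 10 kb window has no test), and most of the 8 named elements with a test could not pass it for want of days. The direction turned at 6 values. It was also lost, with a difference of 0, at Sall4 +16.9 kb without day 7, at Sall1 -2.8 kb and Sall1 -8.9 kb without day 12, and at the Sall4 start with presence of a peak. The Sall1 start (0.0890) turned to -0.0452 at a minimum score of 100, to -0.0467 with the 44126 top-scoring peaks of each library and to -0.118 with regions from summits merged within 150 bp. The Sall4 +1.7 kb element turned to -0.125 with presence of a peak. With missing peaks set at the lowest pileup of the library, an alternative chosen after seeing the data, Sall4 +16.9 kb turned to -0.0247 and Sall1 -8.9 kb to -0.0251. The difference at the Sall4 start ran from 0 with presence of a peak to 11.125 on the unscaled pileup (exact p from 0.03125 to 1, adjusted p from 0.242 to 1). The cause of these changes was not tested.

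A minimum score of 100 left 7 elements at Sall4 and 10 at Sall1, with 19 and 25 element-days at Sall4 for Nanog and NanogN70 and 6 and 8 at Sall1. Equal peak numbers left 9 and 8 elements, 2 and 3 of them ESC-only, with 24 and 26 element-days at Sall4 and 7 and 9 at Sall1. A window of 10 kb held 11 and 12 elements, 2 of them ESC-only at Sall1, with 29 and 30 element-days at Sall4 and 8 and 15 at Sall1. Regions from summits gave 37 and 39 element-days at Sall4 and 14 and 24 at Sall1. Leaving out 1 day gave 24 to 28 element-days at Sall4 with Nanog, 29 to 36 with NanogN70, and 6 to 9 and 14 to 21 at Sall1, where NanogN70 fell to 14 without day 12. Leaving out 1 ESC library gave 4 to 6 ESC-only elements at Sall4 and 5 to 6 at Sall1. Over all regions, those with an exact p under 0.05 numbered 3879 in favour of NanogN70 and 6169 in favour of Nanog. They were 2154 and 3254 at a minimum score of 100, 671 and 816 with presence of a peak, 2235 and 36325 with missing peaks at the lowest pileup, 1954 to 3013 and 3741 to 5228 when 1 day was left out, 1941 and 4866 with equal peak numbers, 4275 and 4394 when scaled by the median of all peaks, and 5815 and 3101 on unscaled pileups, where the balance turned. Of the 5 genes most like Sall4, 3 were shared with a pseudocount of 1 and 2 over the 16 time course libraries, and for Sall1 1 and 3. The sign-flip test pairs the paths by day, and no further pairing by replicate could be made, since each day has 1 library a path.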
